A study of Vitis vinifera with 12 samples.

Results

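Green berries were set against young inflorescences of grapevine (Vitis vinifera cv Corvina), the step from flower to fruit, on an oligonucleotide array for plant miRNAs. The comparison used 4 of the 12 arrays of the series. Of these, 2 carried green berries before veraison, taken 5 weeks after flowering, and 2 carried young inflorescences, taken 3 weeks before flowering. Both tissues came from field-grown plants, and the seeds were removed from the berries before RNA extraction, so that the green berry samples are fruit without seeds. Each array was hybridized with Cy5-labelled low molecular weight RNA (LMW-RNA) from its own extraction. No source used here says whether the extractions of a tissue were from separate plants, so p-values measure the spread between 2 extractions and their arrays. The other 8 arrays (leaves, roots, and berries at veraison and maturity) entered the fit, so that the spread used is pooled over all 6 tissues. The miRNAs measured were chosen by sequence: 141 of the 1584 distinct perfect match sequences on the array, each the target of a probe that shares 18 or more bases in a row with a mature miRNA of the study. They cover 71 mature names or groups of names in 27 families, each sequence being named after the mature miRNA with which it shares the most bases. Probes of a family differ by few bases and can bind each other's miRNAs, so they are not replicates of each other.

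Plant miRNAs are short RNAs that guide the cleavage or translational repression of mRNAs with closely matching sites. Many of the conserved families target transcription factor mRNAs that pattern meristems, flowers and fruits: miR156 targets SBP-box mRNAs, miR172 AP2-like mRNAs, miR164 NAC mRNAs, miR166 class III HD-ZIP mRNAs, miR169 NF-YA mRNAs, miR171 GRAS-domain mRNAs and miR396 growth-regulating factor (GRF) mRNAs, as worked out chiefly in Arabidopsis. Others adjust nutrient use, such as miR395, which targets mRNAs of ATP sulfurylase and sulfate transporters, and miR399, which acts in phosphate uptake. The seed, bases 2 to 8 from the 5′ end, is the stretch in which pairing with a target is most constrained.

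The sequences below are those on which the comparison turns. Each is the reverse complement of a deposited probe, written as DNA from 5′ to 3′, with the seed of the mature miRNA in capitals. The miR169 targets are shown first because most of them differ in their end bases alone, and miR169b/h and miR169d because their values were less far apart between the tissues.
miR169a/c/j/k/s/w: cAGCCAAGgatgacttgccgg
miR169a/l, shared form: gAGCCAAGgatgacttgccgg
miR169f/g: cAGCCAAGgatgacttgccga
miR169l: gAGCCAAGgatgacttgccgt
miR169o: gAGCCAAGgatgacttgccgc
miR169e: tAGCCAAGgatgacttgcctg
miR169x: tAGCCAAGgatgacttgccta
miR169b/h: tGAGCCAAggatggcttgccg
miR169d: cAGCCAAGaatgatttgccgg
miR171e: tGATTGAGccgcgccaatatc
miR171h: tGGTTGAGccgcgccaatatc
miR171f: tTGAGCCGcgccaatatcact
miR477a: aTCTCCCTcaaaggcttccaa
miR156f/g/i: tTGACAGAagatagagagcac
miR395a to miR395m: ctGAAGTGTttgggggaactc
miR166a/b: tCGGACCAggcttcattcct
miR172a/b/d: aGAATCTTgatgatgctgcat
miR396b: tTCCACAGctttcttgaact

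The form marked as shared overlaps miR169a/c/j/k/s/w, miR169l, miR169o and miR169m/n in all but an end base of each, so it is not particular to miR169a and miR169l. The miR396b sequence also holds the 19 bases that are the mature form of miR396a, miR396c and miR396d, so that its values cannot be assigned to miR396b alone. The miR395 sequence starts 1 base before the mature miRNA, which is the same for miR395a to miR395m. Of the 25 miR169 sequences, 17 carry the seed AGCCAAG. The 19 miR171 sequences hold several registers of 1 related stretch, so that miR171e has the seed GATTGAG, miR171h GGTTGAG and miR171f TGAGCCG.

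Signal over background limited what could be seen. Background was the mean plus 2 SD of the 14 negative and degradation controls on an array, and in raw scanner units it was 2374 and 697 on the green berry arrays (replicates 1 and 2) and 1071 and 4353 on the inflorescence arrays. Above it were 22 and 73 of the 141 sequences in green berries, against 65 and 15 in inflorescences, and 56 were above it on none of the 4 arrays. Values below are the authors' quantile-normalized intensities, on a linear scale unless log2 is named, with replicate 1 before replicate 2. Where a sequence had copies, the printed intensity is their mean, while fits used the mean of their log2 values. On the log2 scale, copies of 1 sequence on 1 array had a pooled SD of 0.26 (28 sequences with copies), whereas the 2 arrays of a tissue had a pooled SD of 1.11 in green berries and 1.10 in inflorescences. The same SD was 1.13 in leaves, 0.51 in roots, 0.51 at veraison and 0.80 in mature berries. Pooled over all tissues, the spread is thus smaller than in the 2 tissues compared, and p-values from the 12-array fit can be too low for them. The bulk of the 141 sequences moved together between replicates: replicate 1 minus replicate 2 had a median of -1.47 in green berries and 1.13 in inflorescences. In other words, replicate 2 was the brighter green berry array for most miRNAs, and replicate 1 the brighter inflorescence array. As in any bulk tissue, fewer cells of a type and less RNA per cell cannot be told apart in these values.

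None of the 141 sequences differed between green berries and young inflorescences past an adjusted p of 0.05 (limma on all 12 arrays, two-sided, Benjamini-Hochberg; 0.0% called). At an unadjusted p under 0.05 there were 28 (19.9%), of which 24 had lower values in green berries (17.0%) and 4 had higher values there (2.84%). Fitted over all 1584 perfect match sequences, 0 passed the adjusted threshold and 124 (7.83%) had an unadjusted p under 0.05. The one-way test of the study's methods, run on the 4 arrays, gave 9 at an unadjusted p under 0.05 and 0 after adjustment. Both green berry arrays lay below both inflorescence arrays for 38 sequences (27.0%) and above them for 20 (14.2%), 58 without overlap in all (41.1%). Over all 141 sequences the median difference, green berries minus inflorescences, was -0.19 on the log2 scale, with 76 negative (53.9%) and 65 positive. This centre depended on the scaling. It was -0.15 with raw medians quantile-normalized over all perfect match sequences and 0.22 with raw medians scaled to the 75th percentile. Scaling on the 13 positive controls put it at -0.01, and no normalization at all at -0.52. Differences are therefore best read against the median of all. Against 0, 124 of the 141 kept their sign under all 5 scalings. All 5 use the same arrays, and those without quantile normalization differ for most sequences by a constant shift, so larger differences keep their sign.

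**Figure D1:**
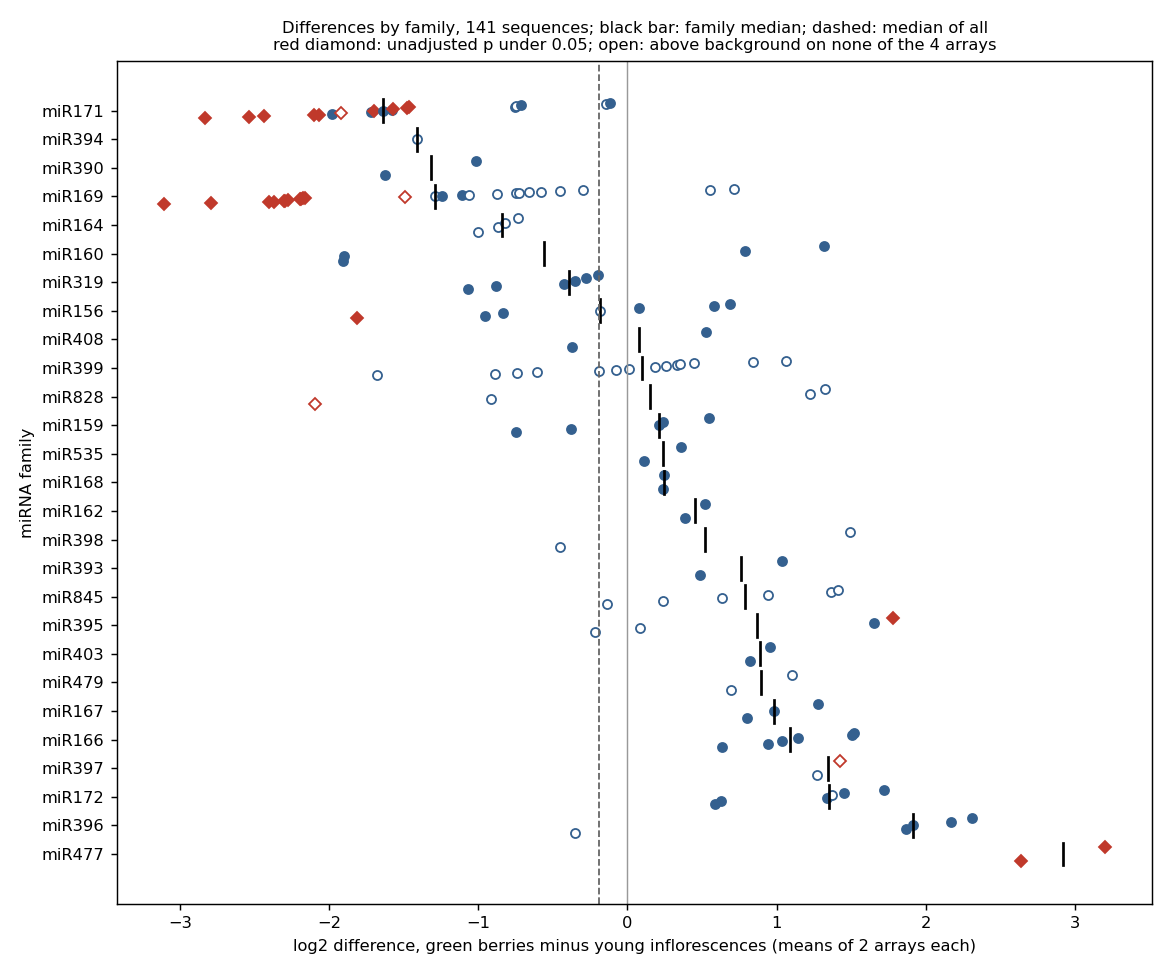
Log2 difference of each of the 141 sequences, green berries minus young inflorescences, by family (rows, ordered by family median). Points are means of 2 arrays against means of 2, red diamonds have an unadjusted p under 0.05, open points were above background on none of the 4 arrays, black bars are family medians and the dashed line is the median of all, -0.19. The miR171 and most miR169 sequences lie on the left and miR477, miR396, miR172 and miR166 on the right.

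The miR169 family, which targets NF-YA transcription factor mRNAs, held the most sequences at an unadjusted p under 0.05, and miR171 the next most. These are also the largest families here, with 25 and 19 sequences. Of the 25 miR169 sequences, 23 had a negative difference, 12 of them at an unadjusted p under 0.05, 14 had both green berry arrays below both inflorescence arrays, and 0 lay the other way without overlap. Over all 141, 53.9% were negative, 17.0% were lower at an unadjusted p under 0.05, 27.0% lay below without overlap and 14.2% above. The family median was -1.29 on the log2 scale, against -0.19 over all 141. Negative differences numbered 22 of 25 without replicate 1 of green berries and 20 of 25 without replicate 1 of inflorescences. For miR169a/c/j/k/s/w, the normalized intensity was 250 and 840 in green berries, against 5461 and 1839 in inflorescences. All values of green berries were below those of inflorescences, and the log2 difference was -2.79 (standard error 0.80, unadjusted p = 0.00484, adjusted p = 0.156 by limma). No green berry array was above background for it and 1 of the 2 inflorescence arrays was. In such cases the tissue with no array above background is set, on each array, at the lowest normalized signal above background or at its own value where higher. The fold then came to 2.57 in favour of inflorescences. It is not a strict bound, because the inflorescence mean includes replicate 2, which was not above background.

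The shared form of miR169a, miR169l and others had 212 and 872 in green berries, against 5797 and 2355 in inflorescences, a log2 difference of -3.10 (standard error 0.86, unadjusted p = 0.0039, adjusted p = 0.156 by limma). The fold set in the same way was 3.00 in favour of inflorescences, again not a strict bound, with 1 inflorescence array above background. miR169o had 253 and 990 in green berries, against 3385 and 2073 in inflorescences (log2 difference -2.40, standard error 0.81, adjusted p = 0.156 by limma). A 20-base probe present in 8 copies, which fits miR169a, miR169c, miR169f, miR169g, miR169j, miR169k, miR169s and miR169w alike, had 345 and 1092 in green berries, against 4441 and 2039 in inflorescences (log2 difference -2.30, standard error 0.80, adjusted p = 0.156 by limma). On each of these, replicate 1 of inflorescences was the highest array and replicate 1 of green berries the lowest. The methods call a probe present above background with perfect match more than 1.2 times mismatch. The presence rule used here asks for this on both arrays of a tissue, which the methods do not state. By this stricter rule, 0 of the 25 miR169 sequences were present in either tissue. The study itself reported several miR169 miRNAs as expressed in both tissues.

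Within the miR169 family the size of the difference went with the sequence. Among the 14 sequences of 21 bases, 5 equal miR169a/c/j/k/s/w apart from the first and last base. These 5 lay between -3.10 and -2.16 on the log2 scale, and all 5 had an unadjusted p under 0.05. The other 9 differ from it in 1 or 2 inner bases, after a move of 1 base where that fitted better, and lay between -2.30 and 0.72 (median -1.11), with 3 at an unadjusted p under 0.05. miR169e and miR169x, at -2.17 and -2.30, were within the range of the 5, and miR169b/h was at -1.06. miR169d, with 2 unlike bases, had 97.5 and 364 in green berries, against 118 and 111 in inflorescences (log2 difference 0.72), and was above background on none of the 4 arrays. The order also follows brightness: mean log2 intensities in inflorescences were 11.37 to 11.87 for the 5 and 6.84 to 11.04 for the 9, while in green berries they were 8.75 to 9.70 and 7.56 to 8.98. How far cross-hybridization or dim signal enters this order was not tested.

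**Figure D2:**
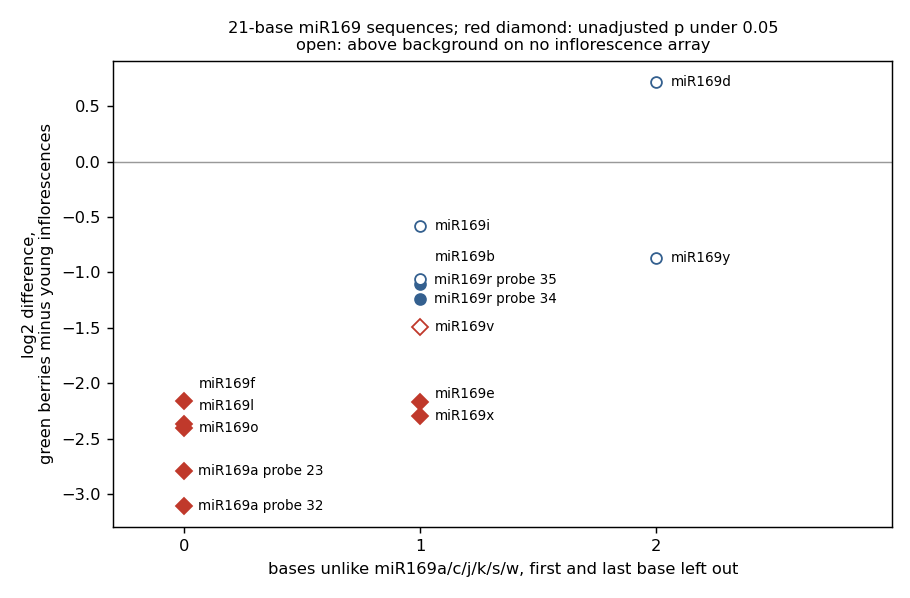
Log2 difference, green berries minus young inflorescences (vertical axis), of the 14 miR169 sequences of 21 bases against the number of inner bases unlike miR169a/c/j/k/s/w (horizontal axis). Each point is 1 sequence, probe numbers tell apart sequences of the same name (miR169a probe 32 is the shared form), red diamonds have an unadjusted p under 0.05 and open points were above background on no inflorescence array. The 5 sequences with 0 unlike inner bases lie between -3.10 and -2.16, and miR169d lies at 0.72.

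The median difference of the mismatch probes of the miR169 family was 0.03 on the log2 scale, where that of the perfect match probes was -1.29. Several members had a negative mismatch difference too, smaller than that of their perfect match: -0.64 for miR169a/c/j/k/s/w, -0.69 for the shared form, -0.46 for miR169o and -0.33 for miR169l. For miR169b/h at 21 bases the mismatch difference, -1.36, was larger in size than the perfect match one, -1.06. For miR169a/c/j/k/s/w the lower of the perfect match over mismatch ratios of each tissue was 2.53 in green berries and 12.5 in inflorescences, and for miR169f/g it was 13.1 in green berries and 19.7 in inflorescences.

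The miR171 family, which targets mRNAs of GRAS-domain (SCARECROW-like) transcription factors, had lower mean values in green berries: all 19 sequences had a negative difference, 10 of them at an unadjusted p under 0.05, and 10 had both green berry arrays below both inflorescence arrays. The shares over all 141 were 53.9%, 17.0% and 27.0% in the same order. Without replicate 1 of green berries 14 of the 19 were negative and 5 positive, and the same held without replicate 1 of inflorescences. All 19 stayed negative without replicate 2 of either tissue. The family median was -1.64, the lowest of the 27 families, against -0.19 over all 141 sequences. With scaling to the 75th percentile 17 of the 19 were negative, and 18 with scaling on the positive controls. The exceptions were miR171b (20 bases) and, under both, a probe that overlaps miR171g in part.

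miR171h had 1193 and 997 in green berries, against 2902 and 4324 in inflorescences. Both inflorescence arrays were above background and above both green berry arrays, of which 1 was above background, and the ratio of the means of the log2 values was 3.25-fold in favour of inflorescences (log2 difference -1.70, standard error 0.59, unadjusted p = 0.0145, adjusted p = 0.156 by limma). miR171e was much alike, with 872 and 1015 in green berries, against 2738 and 2866 in inflorescences (log2 difference -1.57, standard error 0.55). Here the arrays of a tissue were close to each other, unlike the miR169 ones. Both miR171h (21 and 20 bases) and miR171e (21 bases) were present in inflorescences by the presence rule used here, and neither was in green berries. The shifted register miR171f had 332 and 636 in green berries, against 3127 and 1242 in inflorescences (log2 difference -2.10, standard error 0.69, adjusted p = 0.156 by limma). Its fold, set as for miR169a/c/j/k/s/w, was 1.60 in favour of inflorescences. This is not a strict bound, because replicate 2 of inflorescences was not above background. A 20-base probe that overlaps miR171a/c/d/i in 18 bases had the largest negative difference of the family, -2.83 (standard error 1.16), with 271 and 2025 in green berries, against 12256 and 2264 in inflorescences. Its groups nearly touch, and replicate 1 of inflorescences alone carries much of the difference. Another 20-base probe with an 18-base overlap had 306 and 886 in green berries, against 6104 and 1295 in inflorescences (log2 difference -2.43, standard error 0.84, adjusted p = 0.156 by limma). The brightest 21-base probe of miR171a/c/d/i had 351 and 1788 in green berries, against 8632 and 2449 in inflorescences (log2 difference -2.54). The median difference of the miR171 mismatch probes was -0.10. Single mismatch differences were -1.38 for miR171e, close to its perfect match difference of -1.57, -0.31 for miR171h and -0.65 for miR171f.

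**Figure D3:**
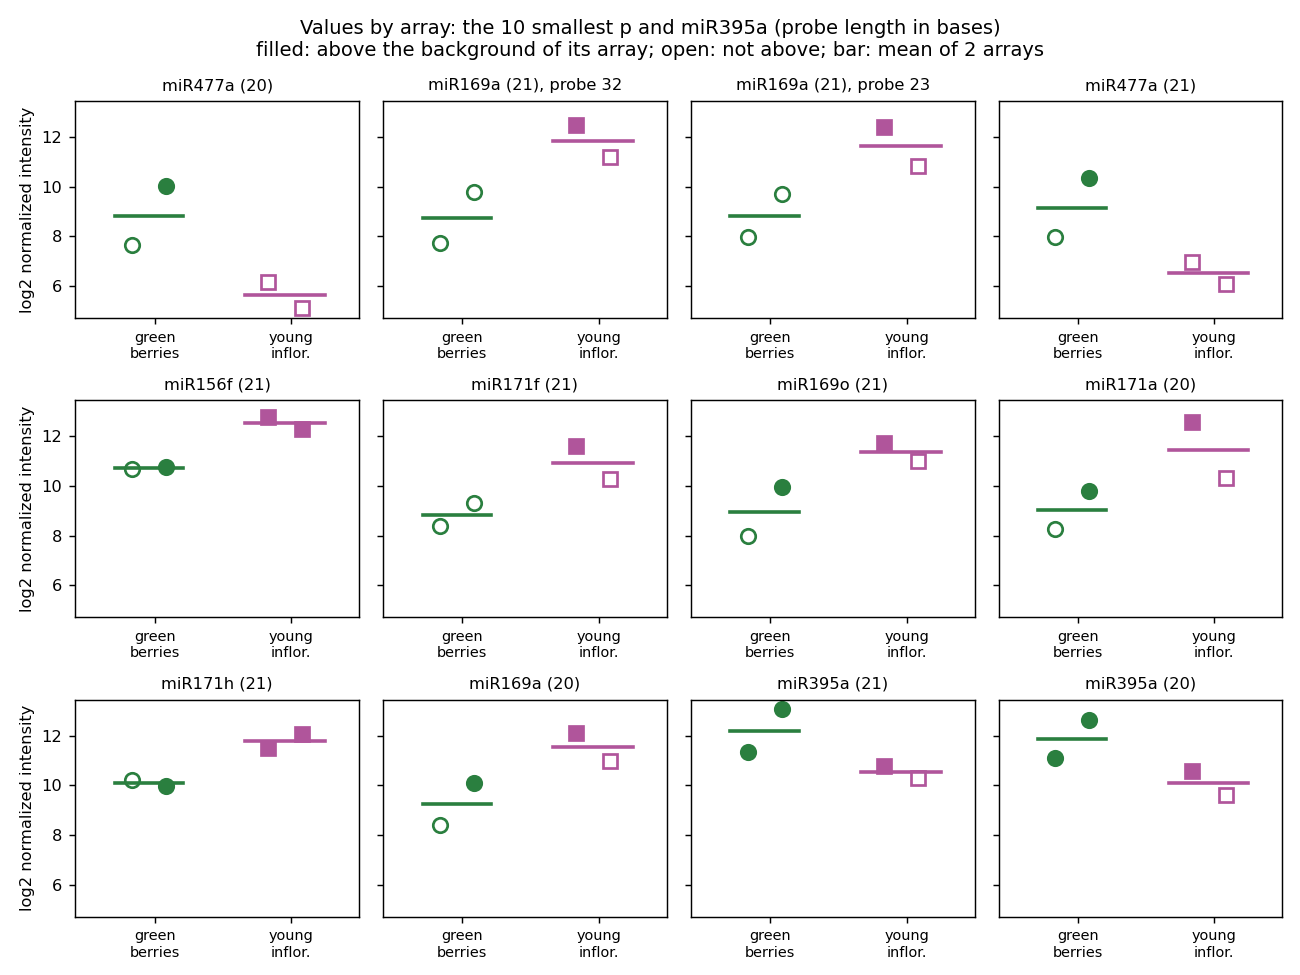
Log2 normalized intensity (vertical axis) on the 2 green berry arrays (circles, left) and the 2 young inflorescence arrays (squares, right) for the 10 sequences with the smallest p and both miR395a sequences, with the length of the sequence in bases in brackets. Replicate 1 stands left of replicate 2, bars are means, filled symbols were above the background of their array and open ones were not. The miR169, miR171 and miR156f panels have green berries below inflorescences, and the miR477a and miR395a panels have them above.

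miR477a had the largest positive difference as fitted, but its inflorescence values were far under background and the size depended on how such values were treated. This miRNA belongs to a less conserved family whose main targets are less settled across species. Its 20-base sequence had 199 and 1058 in green berries, against 72.0 and 34.4 in inflorescences, a log2 difference of 3.20 (standard error 0.83, unadjusted p = 0.0025, adjusted p = 0.156 by limma). Its 21-base sequence had 249 and 1324 in green berries, against 127 and 67.0 in inflorescences (log2 difference 2.64, standard error 0.79, unadjusted p = 0.00645, adjusted p = 0.156 by limma). For both, only replicate 2 of green berries was above background, and no fold is given because the bound came to under 1. With values under 200 set to 200 the median of both log2 differences was 1.36, under the 1.49 of miR396 (unadjusted p = 0.165 for 20 bases and 0.0706 for 21 bases, adjusted p = 0.434 and 0.315, limma). Without replicate 2 of green berries, the array above background, the median was 1.71 (adjusted p = 0.167 for 20 bases and 0.346 for 21 bases, limma). Without replicate 1 of green berries it was 4.13 (adjusted p = 0.0277 for each, limma). In both fits the lone green berry array is assumed to vary as the other tissues do. The means of the 20-base sequence in the other tissues, on the log2 scale, were 6.23 in leaves and 6.44 in roots, near the 5.64 of inflorescences, and 8.26 at veraison and 9.29 in mature berries, near the 8.84 of green berries (n = 2 arrays each, no test made). Each of these means lay under the lowest normalized signal above background on either array of its tissue, so they are means of dim signal.

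Among the miRNAs of sulfate and phosphate use, miR395, the sulfate miRNA, had 2397 and 6442 in green berries, against 1530 and 784 in inflorescences, on its 20-base sequence, which the array holds in 13 copies. The green berry arrays were both above both inflorescence arrays, with a log2 difference of 1.78 (standard error 0.81, unadjusted p = 0.0492, adjusted p = 0.248 by limma), a 3.44-fold ratio. Replicate 2 of inflorescences was not above background for this sequence, so the ratio rests in part on a value under background. The SD between its 13 copies was 0.61 and 0.20 on the green berry arrays and 0.09 and 0.19 on the inflorescence arrays (log2), so that the copies were more even than the arrays of a tissue. Its 21-base sequence had 2592 and 8502 in green berries, against 1778 and 1251 in inflorescences (log2 difference 1.65, standard error 0.88, adjusted p = 0.320 by limma). Both were present in green berries and not in inflorescences. The other miR395 sequences, both of miR395n, had differences of 0.09 and -0.22, both negative with scaling on the positive controls or no normalization, and were above background on none of the 4 arrays. The 14 miR399 sequences, 8 positive and 6 negative, had a median difference of 0.10, and 0 of them were above background on any of the 4 arrays. miR399b/c, the brightest of them, had 159 and 663 in green berries, against 547 and 252 in inflorescences. The sulfate and phosphate list as a whole (18 sequences) had 11 positive and 7 negative differences and a median of 0.13, which was -0.26 with no normalization.

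miR156 and miR535, which target SBP-box mRNAs, had 5 positive and 4 negative differences among 9 sequences, with a median of 0.08 (-0.25 with no normalization). miR156f/g/i stood apart from the other 8. It had 1653 and 1740 in green berries, against 6975 and 5077 in inflorescences, so that the arrays within each tissue were close and those of the tissues did not overlap (log2 difference -1.81, standard error 0.56, unadjusted p = 0.00767, adjusted p = 0.156 by limma), a 3.51-fold ratio with both inflorescence arrays and 1 green berry array above background. Its ratio of perfect match over mismatch was 0.86 on the lower of the green berry arrays, against 1.42 on the lower of the inflorescence arrays, and it was present in inflorescences only. The 20-base sequence that starts at the same base, however, had 883 and 870 in green berries, against 407 and 2456 in inflorescences, a difference of -0.19, and the other 20-base sequence had a difference of -0.95. miR156a, also present in inflorescences only, had 5021 and 1828 in green berries, against 1993 and 14610 in inflorescences, where the values overlap. miR156e had 3467 and 1251 in green berries, against 1396 and 2788 in inflorescences (log2 difference 0.08). miR535a was present in green berries, at 1799 and 2054, against 2047 and 1493 in inflorescences. The 5 copies of this sequence had an SD of 1.13 on replicate 1 of inflorescences (log2), and by the means of their log2 values both green berry arrays were above both inflorescence arrays (log2 difference 0.36).

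miR172, which targets AP2-like mRNAs, had a positive difference on all 6 sequences, with a median of 1.35. None of the 6 had an unadjusted p under 0.05, against 19.9% of all 141. Non-overlapping arrays were seen for 1 of the 6, against 41.1% of all 141: the 19-base miR172c sequence, at 466 and 1295 in green berries, against 435 and 128 in inflorescences (log2 difference 1.72, standard error 0.88). Its lower green berry value and the higher inflorescence value were close. miR172c at 21 bases had 705 and 2341 in green berries, against 1366 and 532 in inflorescences, and miR172a/b/d had 534 and 1890 in green berries, against 922 and 457 in inflorescences (log2 difference 0.63). Replicate 2 of green berries was the highest of the 4 arrays in each. The family median was 0.18 without that array and 0.21 without replicate 2 of inflorescences, with 2 of the 6 negative in either case, and 2.37 without replicate 1 of green berries and 2.35 without replicate 1 of inflorescences.

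For miR396b, of the GRF-targeting family, 4 of 5 sequences had both green berry arrays above both inflorescence arrays, against 14.2% of all 141. The 5 are overlapping forms under 1 mature name and not separate observations. The family median was 1.92. It was 0.96 without replicate 2 of green berries, 2.89 without replicate 1 of green berries and 1.21 without replicate 2 of inflorescences. The 22-base form that holds the whole mature miRNA had 593 and 2497 in green berries, against 471 and 128 in inflorescences, a log2 difference of 2.31 (standard error 1.43). The 20-base form had 242 and 1175 in green berries, against 170 and 85.0 in inflorescences (log2 difference 2.17, standard error 1.32). Only replicate 2 of green berries was above background. The 18-base form was the exception, at 59.3 and 305 in green berries, against 92.4 and 320 in inflorescences. None of the 5 had an unadjusted p under 0.05.

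miR166, which targets class III HD-ZIP mRNAs that set organ polarity, was among the brightest families in green berries, where all 6 of its sequences were present. In inflorescences 0 of the 6 were, each being above background on replicate 1 alone. All 6 differences were positive, with a median of 1.09, yet the arrays overlapped in all 6. The brightest miR166c form had 5461 and 54207 in green berries, against 19457 and 1880 in inflorescences (log2 difference 1.51, standard error 1.27), and miR166a/b at 20 bases had 2606 and 14239 in green berries, against 9147 and 1095 in inflorescences (log2 difference 0.94, standard error 1.09). The spread between replicates was thus wider than the difference between tissues, and the family median was -0.11 on leaving out replicate 2 of green berries, or -0.35 on leaving out replicate 2 of inflorescences. It was 2.18 and 2.58 on leaving out replicate 1 of green berries or of inflorescences.

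The auxin-related miRNAs went both ways, with 7 positive and 4 negative differences and a median of 0.79. miR160 and miR167 target auxin response factor mRNAs, miR393 targets mRNAs of TIR1-type auxin receptors, and miR390 starts the processing of TAS3 RNA into small RNAs against auxin response factors. miR167a and miR167b/d/e were present in green berries only, with 2239 and 6464 in green berries, against 3102 and 797 in inflorescences, for miR167a, and 3190 and 7224 in green berries, against 5737 and 1318 in inflorescences, for miR167b/d/e. These arrays overlapped. miR160c/d/f was present in inflorescences only, with 1258 and 4468 in green berries, against 22212 and 3521 in inflorescences (log2 difference -1.90, standard error 0.95), where replicate 1 of inflorescences alone was far above the rest, and its 20-base sequence had 894 and 4778 in green berries, against 17225 and 3398 in inflorescences. miR160a/b/e had 436 and 3162 in green berries, against 1251 and 370 in inflorescences (log2 difference 0.79). miR390 had 1286 and 752 in green berries, against 3227 and 2840 in inflorescences, on its 21-base sequence, without overlap (log2 difference -1.62, standard error 0.79, unadjusted p = 0.0632), at least 2.46-fold higher in inflorescences. On its 20-base sequence miR390 was present in both tissues, and the arrays overlapped, at 3495 and 1150 in green berries, against 3349 and 4914 in inflorescences.

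miR159 and miR319, related families that target GAMYB-like and TCP mRNAs, were bright in both tissues. Of their 11 sequences, 6 were present in green berries, against 5 in inflorescences, and 4 were present in both: miR159c at 21 and 20 bases, miR319b/c/g and miR319g at 20 bases. miR159c was the brightest miRNA of the 141, with 12516 and 29963 in green berries, against 54207 and 19457 in inflorescences. miR319b/c/g had 2739 and 7456 in green berries, against 8926 and 3394 in inflorescences. miR319g at 21 bases had 1545 and 3756 in green berries, against 7466 and 3412 in inflorescences, and at 20 bases 3385 and 6233 in green berries, against 9857 and 2817 in inflorescences. Among the 11, 8 differences were negative and 3 positive, with a median of -0.35, 0 at an unadjusted p under 0.05 and 0 without overlap (19.9% and 41.1% over all 141). The median turned to 0.54 with scaling to the 75th percentile and to 0.31 with scaling on the positive controls.

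**Figure D4:**
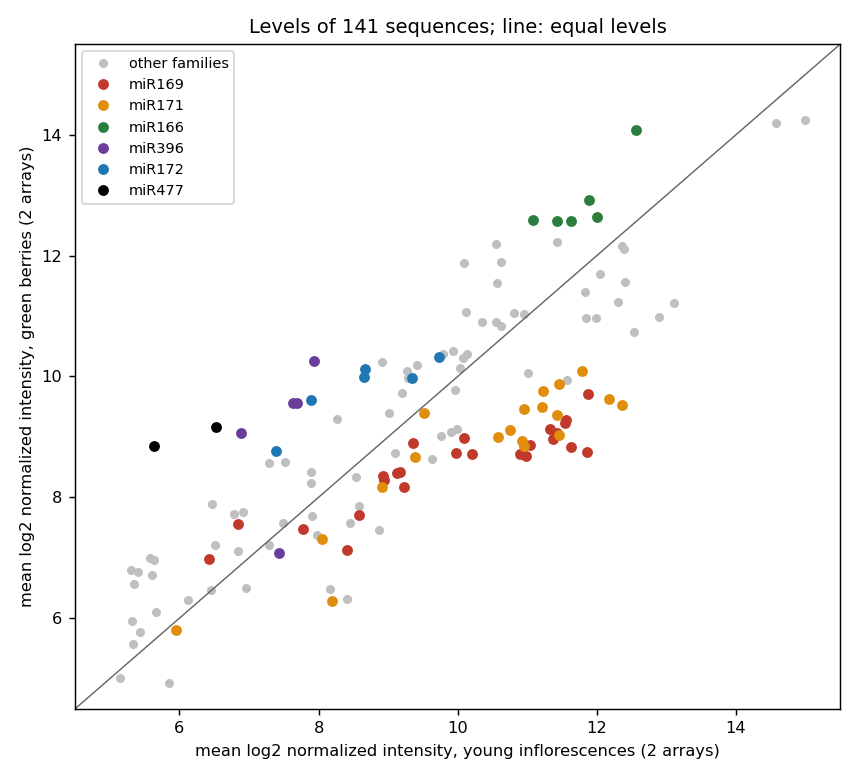
Mean log2 normalized intensity of each of the 141 sequences in green berries (vertical axis) against young inflorescences (horizontal axis), 2 arrays each, with 6 families in colour and the line of equal levels. miR159c lies at the top right near the line, the miR169 and miR171 sequences that are bright in inflorescences lie below it, and miR166, miR172, miR477 and most miR396 sequences lie above it.

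Some lists were near or under the limit of detection. The 4 sequences of miR164, which targets NAC mRNAs such as those of the CUC group, all had lower values on both green berry arrays than on both inflorescence arrays, as did 27.0% of all 141. Their median was -0.84, but 0 of them were above background on any of the 4 arrays. miR164a/c/d at 20 bases had 618 and 509 in green berries, against 1138 and 910 in inflorescences (log2 difference -0.86, standard error 0.55, unadjusted p = 0.144), and miR164b at 21 bases had 288 and 543 in green berries, against 1080 and 581 in inflorescences. The copper-protein miRNAs (miR397, miR398 and miR408, which target laccase, superoxide dismutase and plantacyanin mRNAs) had 4 positive and 2 negative differences, with a median of 0.90. miR397a/b at 20 bases was 138 and 409 in green berries, against 97.8 and 79.7 in inflorescences (log2 difference 1.42, standard error 0.65, unadjusted p = 0.049, adjusted p = 0.248 by limma), and not above background. miR408 at 21 bases had 139 and 1291 in green berries, against 489 and 616 in inflorescences.

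The miRNAs of the small RNA pathway itself (miR162, miR168 and miR403, which target DCL1, AGO1 and AGO2 mRNAs) had 6 positive differences of 6, with a median of 0.45 and 0 at an unadjusted p under 0.05. miR403 was present in green berries, with 2642 and 1752, against 2102 and 585 in inflorescences. miR168 at 21 bases had 1305 and 1358 in green berries, against 1456 and 865 in inflorescences (log2 difference 0.25). The remaining families (15 sequences) had 11 positive and 4 negative differences, with a median of 0.94. Apart from miR477a they were not above background. Among them miR828a, which targets MYB mRNAs, had 60.5 and 104 in green berries, against 530 and 216 in inflorescences (log2 difference -2.09, standard error 0.81, unadjusted p = 0.0253), and miR394a/b/c had 91.9 and 334 in green berries, against 879 and 246 in inflorescences.

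By the presence rule, 19 of the 141 sequences (13.5%) were present in green berries and 14 (9.93%) in inflorescences, from 8 and 6 families. Present in both were 5, the 4 named above and miR390. The 14 present in green berries alone came from miR166, miR167, miR319e, miR395a, miR403 and miR535a. The 9 present in inflorescences alone came from miR156a, miR156f, miR160c, miR171e, miR171h, miR319g and miR390. These counts are limited by the array of each tissue with the higher background. Without replicate 1 of green berries 69 were present there, and without replicate 2 of inflorescences 64 were present there. The ubiquitin probe outshone the other controls on each of the 4 arrays, and with it left out of the background 37 were present in green berries, against 65 in inflorescences. By its own rule the study reported more miRNAs with significant signal in each of these tissues. Among them were members of miR164 and miR172, of which no sequence was present here in either tissue.

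Probes of different length for the same place gave like differences. In 66 pairs of a 21- or 22-base sequence and the 20-base sequence that starts at the same base, the sign was the same in 61, the median gap was 0.31 on the log2 scale, and the differences had a Pearson correlation of 0.91. Both probes of a pair bind the same RNA on the same arrays, so this describes the probes and not the tissues. The widest gap was that of miR399f, at 2.13, which was above background on none of the 4 arrays.

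The split between lower and higher values rested on single arrays. At an unadjusted p under 0.05, 4 sequences had lower and 18 higher values in green berries without replicate 1 of green berries, and 6 had lower and 15 higher values without replicate 1 of inflorescences. Without replicate 2 of green berries the numbers were 31 and 1, and without replicate 2 of inflorescences 28 and 2. Relative to the median of all 141 sequences, the miR169 median was between -1.56 and -0.95 in these 4 fits, and the miR171 median between -1.72 and -1.27. The same range was -0.93 to -0.17 for miR164, 0.27 to 2.24 for miR166, 0.82 to 2.20 for miR172, 1.60 to 2.72 for miR396 and 2.36 to 3.95 for miR477, so that the sizes depended on the array left out. Counts within these families at an unadjusted p under 0.05 did change: the 12 lower miR169 sequences became 2 without replicate 1 of green berries and 1 without replicate 1 of inflorescences, and the 10 lower miR171 sequences became 1 and 2. With scaling to the 75th percentile there were 2 in each family, and with scaling on the positive controls 0 in each.

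**Figure D5:**
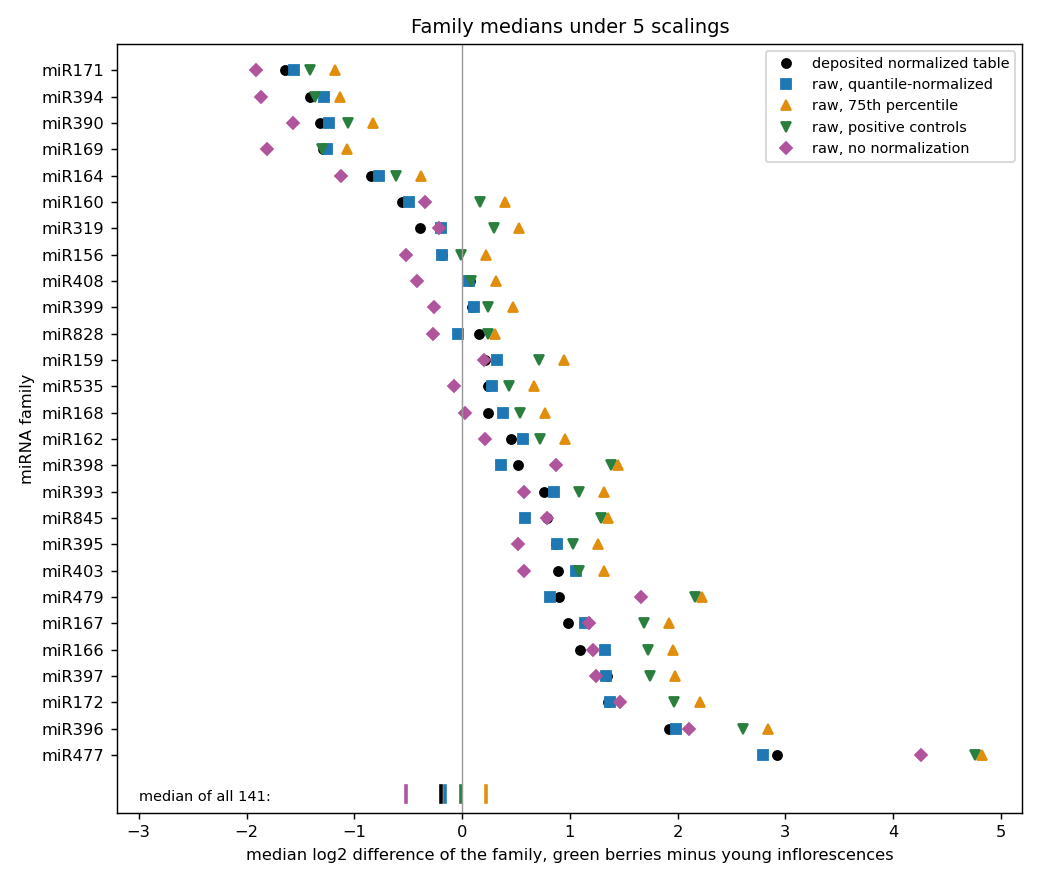
Median log2 difference of each family, green berries minus young inflorescences, under 5 scalings of the arrays (symbols), with families in rows and the median of all 141 sequences as short bars at the foot. miR171, miR394, miR390, miR169 and miR164 lie below 0 and miR477, miR396, miR172 and miR166 above 0 under all 5, whereas miR319 lies between -0.39 and 0.53.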

How the data were processed

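Intensities were deposited for 12 arrays. For each array the authors deposited the median intensity of the replicate spots of every probe, in scanner units and before normalization, and for all arrays a table of intensities that were quantile-normalized by the authors. Slides were stripped and re-used between hybridizations. Scans were read with ScanArray Express and Microarray Imager, and no source used here says if local background was taken off.

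Probes were matched to the mature miRNAs of the study over at least 18 bases. Rows of 1 sequence were averaged, values under 1 were set to 1, and log2 values were fitted to 6 tissues of 2 arrays with limma 3.58.1 (R 4.3.3; tables with Python 3.11.15 and pandas 2.3.3), testing green berries minus young inflorescences over 141 sequences. Raw medians were used for background, presence and scaling alternatives. The fit was tested on simulated data. The closing section gives the alternatives.

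Members, lists and tests were chosen with earlier results of these data known. Lists follow family and target: SBP-box, AP2-like, GAMYB and TCP, auxin, NAC, HD-ZIP III, NF-YA, GRAS, GRF, copper proteins, sulfate and phosphate, small RNA pathway, remaining. Named are the members past the threshold (none), the 10 with the smallest p, those present in either tissue and the 3 brightest of each list, the dimmer forms of a name by range or count. Others named (miR169b/h, miR169d, miR169e, miR169x, miR399f, some 20-base forms) were chosen after their values were seen. Precision is limited by the small number of arrays and by dim signal. The other tissues entered the fit, and their means are given for miR477a only.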

Additional observations from a re-analysis of the deposited data

How the results depend on the processing

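In limma the count past the adjusted threshold stayed at 0 of 141 under the other scalings, floors, filters, array weights and trends tried, and was 0 to 2 on leaving out each of the 12 arrays in turn, the 2 being both miR477a sequences without replicate 1 of green berries. At an unadjusted p under 0.05 there were 28, and 21 to 32 on leaving out an array. Scaling to the 75th percentile gave 9, scaling on the positive controls 2, the 28 present miRNAs 4, the brighter 70 sequences 18, the 4 arrays alone 5, the methods' one-way test 9, and 1 value per mature miRNA 17 of 71. The fits on fewer sequences test fewer, and that on 4 arrays has fewer degrees of freedom and takes its spread from the 2 compared tissues alone. For the scalings the cause was not tested.

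No label says whether arrays of the same replicate number belong together. The differences between replicates 1 and 2 of both tissues correlated at -0.60 over the 141 sequences. With the number as a replicate block the count past the threshold was 0, with 25 at an unadjusted p under 0.05, and a block fit of the 4 arrays alone, added after seeing the data, called 0, with 2 at an unadjusted p under 0.05. With the green berry numbers crossed, a pairing chosen after seeing the data that no label gives, the block fit called 17 on all 12 arrays (38 at an unadjusted p under 0.05) and 59 on the 4 arrays (69 at an unadjusted p under 0.05).

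Of the 10 sequences with the smallest p, 0 changed sign under any setting that included them. They were picked by p in these same data, so their kept signs are no separate support. Trends, array weights, replicate blocks and leaving out arrays of other tissues cannot alter the differences at all. Presence in green berries (19) was 9 with a background of the mean plus 3 SD, 37 without the ubiquitin control, 69 on at least 1 of the 2 arrays, and 19 to 69 on leaving out an array. Presence in young inflorescences (14) was 6, 65, 64, and 14 to 64 under the same settings. Presence on every array kept is required, so leaving out an array can only keep or raise these counts.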
